A study of Zea mays with 4 samples.

Results

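The genes described here act in cell division in plants, to promote it, restrain it or copy and package DNA. They are mitotic cyclins, the cyclin-dependent kinase gene cdc2, subunits of the replicative helicase, the sliding clamp of DNA polymerase, retinoblastoma-related repressors and a core histone. They were taken by name, from any probe set whose gene symbol, or RefSeq symbol or synonym, begins with the name of one of these families. The rule found 11 genes, measured by 15 probe sets, among 1108 genes with 1452 probe sets in the annotation used here; the array holds 17555 maize probe sets in all. Of the 15, 13 probe sets of 10 genes were bright enough to be tested. The histone families are represented by 1 probe set, for histone H2B, so the values below say nothing of the other core histones.

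The samples were stacked young internodes of maize plants with 6 to 7 leaves, kept under 16 h of light at 25 °C, with nights at 22 °C. CCR mutant and WS samples were compared on Affymetrix maize arrays, with 1 array for each sample. The 2 CCR mutant samples come from plants with lowered CCR (cinnamoyl-CoA reductase, which makes the aldehyde precursors of lignin) and were single extracts of 144 and 182 µg with no treatment recorded. The 2 WS samples were pools of the sample's own extract (185 and 215 µg) with 3 further extracts of 1 µg each, and they carry a drought record of 36 h at an REW of 20 to 30%. Neither the meaning of WS nor the allele and genetic background of the mutant is given in the sources used here. Genotype, pooling and recorded drought separate the same samples and cannot be told apart. No source says whether samples of 1 group are separate plants. A p-value therefore sets a difference only against the spread between these samples, partly shared over all tested probe sets, and may not reflect the spread between plants. Levels are log2 values from GCRMA, an array summary that corrects background and equalises arrays, and the number of arrays limits their precision.

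Of the CCR genes, cncr1 had 8.59 and 9.14 on the CCR mutant arrays, against 10.99 and 10.13 on the WS arrays, a difference of -1.70 (SE 0.38, limma adjusted p = 0.68). The other, cncr2, had 5.59 and 5.13 on the CCR mutant arrays and 5.93 and 5 on the WS arrays, which overlapped, with a difference of -0.11 (SE 0.39). Photosynthetic leaf genes were bright on all arrays, with a median level of 11.49 and 11.67 in the CCR mutant and 11.65 and 11.12 in WS. Levels of different genes are not compared below, since probe sets differ in how well they hybridise. In bulk tissue, fewer dividing cells and less RNA per dividing cell cannot be told apart.

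A cell divides when cyclins accumulate and activate cyclin-dependent kinases. Before DNA synthesis the retinoblastoma-related proteins, which hold back E2F transcription factors, are inactivated, and genes for the helicase, the clamp and histones are expressed. In a grass stem the dividing cells lie at the shoot apex and in the intercalary meristem at the base of each internode. Whether transcripts of these genes follow the amount of such tissue in these samples was not tested.

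All 13 tested probe sets of these genes had a lower mean in the CCR mutant than in WS, by modest amounts. Of all tested probe sets, 62.7% had a lower mean. None of the 13 passed the test, and between the replicate 1 arrays alone 7 were lower and 6 higher. The differences in means (CCR mutant minus WS, log2) lay between -0.57 for cyc3 and -0.01 for rrb1. Their median was -0.29, against a median of -0.05 for all 11085 tested probe sets. With limma, 0 of the 13 passed at an adjusted p of 0.05 (0.153% of all tested probe sets did), and 0 had an unadjusted p under 0.05 (6.43% of all did). Adjusted p-values ran from 0.789 for cyc3 to 0.992 for rrb1. Cyclin and replication genes had the differences of larger size, and those of cdc2, rrb1, cyc2 and the histone gene were at most 0.10 in size. These 13 probe sets include 3 of MCM6 and 2 of cdc2, which are annotated to the same gene and are not separate observations.

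**Figure D1:**
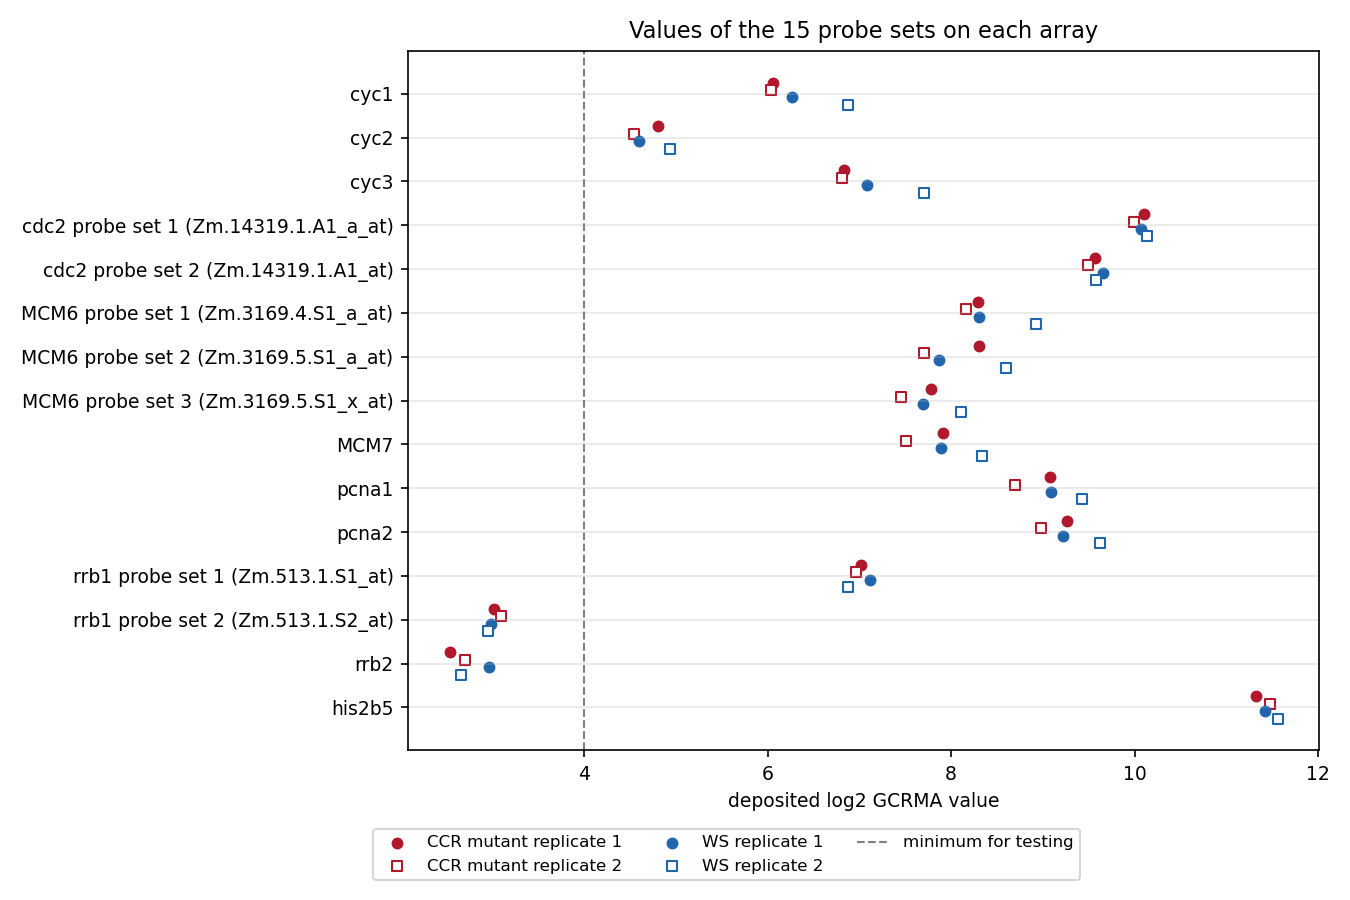
Deposited log2 GCRMA values (horizontal axis) of the 15 probe sets on the 2 CCR mutant arrays (red) and the 2 WS arrays (blue), with circles for replicate 1 and squares for replicate 2. WS replicate 2 is the rightmost point in most cyclin and replication rows, while 1 rrb1 probe set and rrb2 lie below the minimum of 4 needed for testing.

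Cyclins are the regulatory subunits whose rise and destruction time the phases of the cycle. The cyclin gene cyc3 had 6.83 and 6.81 in the CCR mutant, against 7.08 and 7.70 in WS. Both mutant arrays lay below both WS arrays, close to each other, and WS replicate 2 stood above WS replicate 1. The means were 6.82 ± 0.01 in the CCR mutant and 7.39 ± 0.44 in WS (SD, n = 2 each). The difference was -0.57 (SE 0.24), with a 95% confidence interval of -1.25 to 0.11. That is a geometric mean of 67.4% of WS, with an interval from 41.9% to 108%.

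The cyclin gene cyc1 had 6.06 and 6.04 in the CCR mutant, against 6.26 and 6.88 in WS. It followed cyc3 closely: in both genes WS replicate 2 exceeded WS replicate 1 by 0.62, and CCR mutant replicate 2 was 0.02 below CCR mutant replicate 1. The groups did not overlap, and the difference was -0.52 (SE 0.24, interval -1.20 to 0.16), or 69.7% of WS. How far the probe sets of cyc1 and cyc3 each bind the transcript of the other was not tested. The third cyclin gene, cyc2, was dim, at 4.80 and 4.54 in the CCR mutant against 4.60 and 4.93 in WS. Its groups overlapped, with a difference of -0.10 (SE 0.17).

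The kinase that mitotic and S-phase cyclins activate is encoded by cdc2. Probe set 1 had 10.10 and 9.99 in the CCR mutant, against 10.07 and 10.14 in WS, and probe set 2 had 9.57 and 9.49, against 9.66 and 9.58. All 4 arrays lay within 0.17 of each other on either probe set, and the groups overlapped on the first and not on the second. The differences were -0.06 (interval -0.30 to 0.18) and -0.09 (interval -0.32 to 0.14). The intervals leave room for a mean in the CCR mutant of 79.9% to 114% of WS. They were narrower than those of cyc1 and cyc3, whose WS arrays were 0.62 apart while their CCR mutant arrays were 0.02 apart.

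MCM6 and MCM7 are subunits of the minichromosome maintenance helicase that unwinds DNA at the replication fork. MCM7 had 7.91 and 7.51 in the CCR mutant, against 7.89 and 8.34 in WS. CCR mutant replicate 1 (7.91) lay just above WS replicate 1 (7.89), so the groups overlapped. Their means differed through replicate 2 of each, low in the mutant and high in WS. The difference was -0.41 (SE 0.23, interval -1.07 to 0.26), or 75.5% of WS.

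MCM6 had the same highest and lowest arrays as MCM7 on its 3 probe sets. Probe set 1 had 8.29 and 8.16 in the CCR mutant, against 8.30 and 8.93 in WS, a difference of -0.39 (SE 0.25). Probe set 2 had 8.30 and 7.70 in the CCR mutant, against 7.87 and 8.60 in WS, a difference of -0.24 (SE 0.35). Probe set 3, whose name ends in _x_at, a suffix for probes that may also bind other transcripts, had 7.78 and 7.45 in the CCR mutant, against 7.69 and 8.11 in WS, a difference of -0.29 (SE 0.21). On all 3, WS replicate 2 was the highest array and CCR mutant replicate 2 the lowest, and only on the first did the groups not overlap. Probe set 2 had the widest interval of the 13, from -1.25 to 0.78.

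PCNA is the ring that clamps DNA polymerase to its template, and maize carries the genes pcna1 and pcna2 for it. These genes are closely related, and how far each probe set binds the transcript of the other was not tested. The probe set of pcna1 had 9.08 and 8.70 in the CCR mutant, against 9.09 and 9.43 in WS, a difference of -0.37 (SE 0.20, interval -0.94 to 0.20). The groups did not overlap, though CCR mutant replicate 1 and WS replicate 1 were 0.01 apart. The probe set of pcna2 had 9.26 and 8.98 in the CCR mutant, against 9.22 and 9.62 in WS, a difference of -0.30 (SE 0.19, interval -0.85 to 0.25). Here the groups overlapped, again with WS replicate 2 highest and CCR mutant replicate 2 lowest.

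The retinoblastoma-related genes rrb1 (also called RBR1) and rrb2 (RBR2) encode the repressors that restrain entry into DNA synthesis. Probe set 1 of rrb1 had 7.02 and 6.96 in the CCR mutant, against 7.11 and 6.88 in WS, with the mutant arrays between the WS arrays and a difference of -0.01 (SE 0.11, interval -0.33 to 0.32). Probe set 2 of rrb1 had 3.01 and 3.09 in the CCR mutant and 2.98 and 2.95 in WS. The only probe set of rrb2 had 2.53 and 2.70 in the CCR mutant and 2.96 and 2.66 in WS. Both of these lay under 3.43, the highest value of reporter probe sets, whose targets maize lacks, when the brightest of 66 is left out. They did not reach the minimum of 4, so they were not tested and give no fold.

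Histone H2B, from his2b5, is a core subunit of the nucleosome, made mainly while DNA is copied. It had 11.32 and 11.48 in the CCR mutant, against 11.42 and 11.56 in WS. The groups overlapped, and in both of them replicate 2 was the higher array. The difference was -0.09 (SE 0.11, interval -0.39 to 0.21), or 94.0% of WS. His2b5 was the only one of the 13 with a higher value in CCR mutant replicate 2 than in CCR mutant replicate 1.

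**Figure D2:**
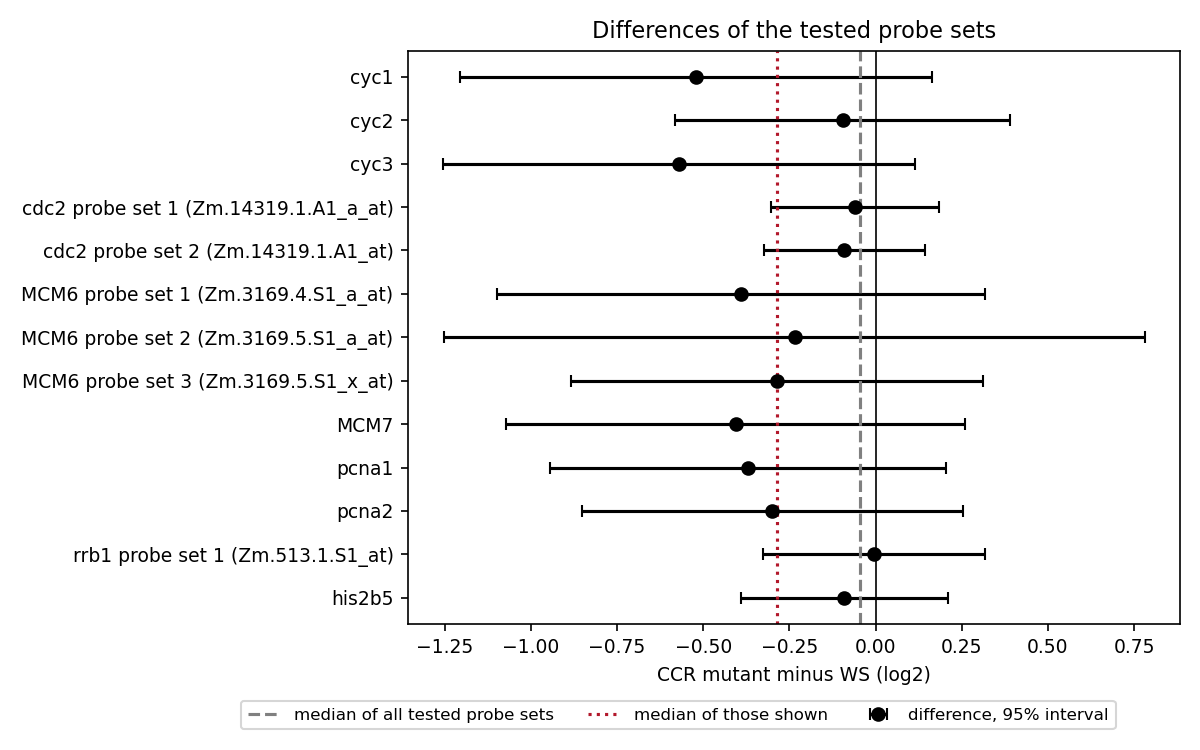
Difference of each of the 13 tested probe sets (horizontal axis, CCR mutant minus WS, log2) with its 95% confidence interval from limma. Every interval includes 0, and those of cdc2, rrb1 and his2b5 are narrower than those of the cyclin and replication probe sets cyc1, cyc3, MCM6, MCM7, pcna1 and pcna2.

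The groups did not overlap for 5 of the 13 probe sets (cyc1, cyc3, pcna1, and 1 each of cdc2 and MCM6), all lower in the CCR mutant. Of all tested probe sets, 23.5% were lower without overlap and 13% higher. A difference of -0.3 or lower was found in 6 of the 13, namely cyc1, cyc3, MCM7, pcna1, pcna2 and 1 of MCM6, against 8.48% of all tested probe sets. The 95% intervals reached a median of 0.57 to either side of the difference for the 13, and 0.32 for all tested probe sets.

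The wider intervals follow from the spread inside the groups, and the spread had an order. The median SD of the 13 was 0.11 between the CCR mutant arrays and 0.28 between the WS arrays, against 0.08 and 0.10 for all tested probe sets. WS replicate 2 was the highest array for 11 of the 13, and for 27.9% of all tested probe sets. CCR mutant replicate 2 was the lowest for 11 of the 13, and for 30.2% of all. Both held together for 10 of the 13 and for 12.2% of all tested probe sets. The gap between the WS arrays exceeded the difference between the groups in 11 of the 13, against 57.1% of all. These counts were chosen after the values had been seen and describe these 4 arrays.

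Array against array, the size of the difference therefore depended on the pair. Between CCR mutant replicate 1 and WS replicate 1 the median of the 13 was -0.01, with 7 lower and 6 higher. Between CCR mutant replicate 1 and WS replicate 2 it was -0.33, with 12 lower. Between CCR mutant replicate 2 and WS replicate 1 it was -0.17, and between CCR mutant replicate 2 and WS replicate 2 it was -0.66, each with 12 lower. The same 4 pairs gave medians between -0.06 and -0.02 over all tested probe sets. Within WS, replicate 2 exceeded replicate 1 by a median of 0.40, with 11 of the 13 higher, where the median of all tested probe sets was -0.01. Within the CCR mutant, replicate 2 was below replicate 1 by a median of -0.13, with 12 of the 13 lower, where the median of all was 0.00.

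For the 6 replication probe sets, CCR mutant replicate 1 minus WS replicate 1 ran from -0.01 to 0.43, with a median of 0.03, and CCR mutant replicate 2 minus WS replicate 2 from -0.90 to -0.64. Within the CCR mutant, replicate 2 was below replicate 1 in all 6, by 0.13 to 0.60. For cyc1 and cyc3 the CCR mutant arrays were within 0.02 of each other, and both were below WS replicate 1 as well. Whether the cyclin and replication genes differ in this respect was not tested.

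**Figure D3:**
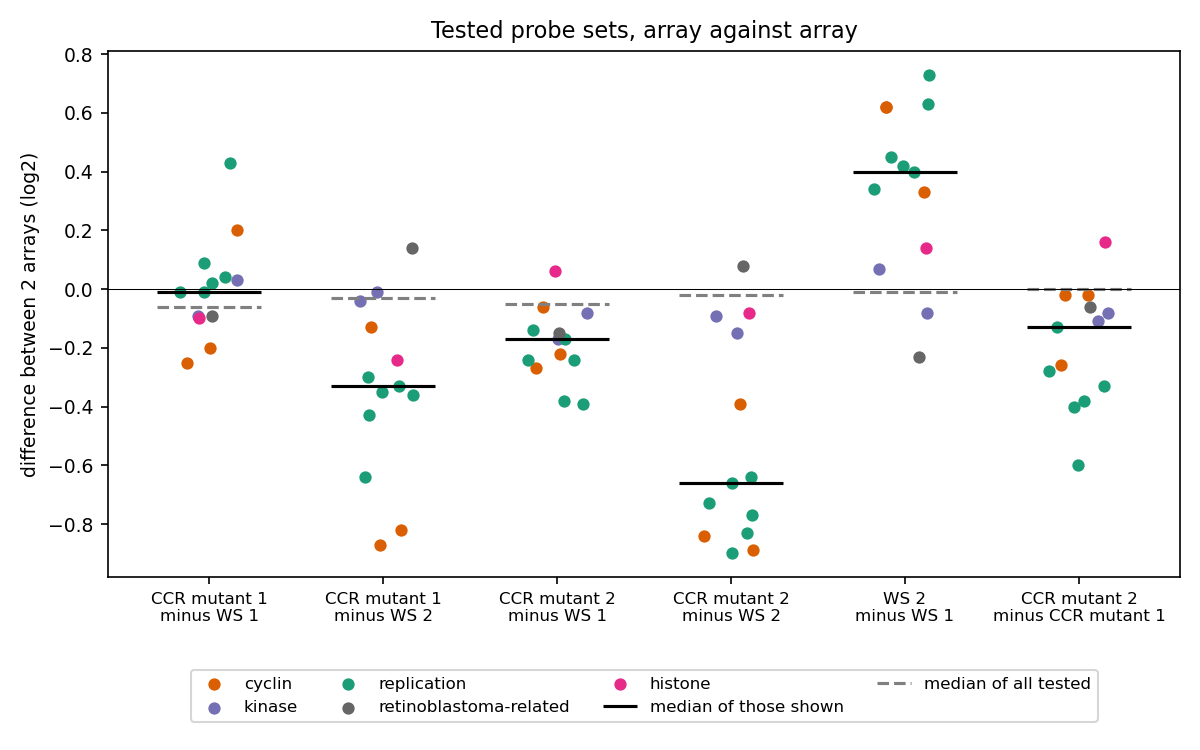
Differences between single arrays (vertical axis, log2) for the 13 tested probe sets, coloured by role, for the 4 pairs between groups and the 2 pairs within groups. Solid bars are the medians of the 13 and dashed bars those of all tested probe sets; the median is -0.01 between the arrays numbered 1 and -0.66 between the arrays numbered 2, and WS replicate 2 stands above WS replicate 1 by 0.40.

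Leaving out WS replicate 2 brought the median of the 13 to -0.10, with 11 lower, and leaving out WS replicate 1 brought it to -0.50, with 12 lower. Leaving out CCR mutant replicate 2 gave -0.16, with 10 lower, and leaving out CCR mutant replicate 1 gave -0.45, with 13 lower. MCM6 on probe set 2 and cyc2 had higher means in the CCR mutant when WS replicate 2 was left out (0.13 and 0.07) or CCR mutant replicate 2 was (0.07 and 0.04). Shifting each array to a common median turned rrb1 to 0.04 and left the other 12 lower, with a median of -0.25.

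Further genes of the cell cycle, DNA replication and chromatin assembly, outside the families above, gave 25 tested probe sets: origin recognition, kinesin-related, linker histone, high mobility group and nucleosome assembly genes and wee1. Of these 18 had lower and 7 higher means in the CCR mutant, where 62.7% of all tested probe sets were lower. Every kinesin-related probe set was lower, from -0.68 for krp13 to -0.13 for krp15. All 7 higher ones belonged to the other genes, which went in both directions. The 25 had a median difference of -0.17 and a range of -0.68 to 0.17. None passed (limma adjusted p of at least 0.55), 5 had an unadjusted p under 0.05 (6.43% of all tested probe sets did), and the groups did not overlap in 10 that were lower and 1 that was higher (23.5% and 13% of all). Their median became -0.13 (16 lower) when WS replicate 2 was left out and -0.07 (16 lower) when CCR mutant replicate 2 was. It was -0.24 (18 lower) in the absence of WS replicate 1 and -0.22 (23 lower) in the absence of CCR mutant replicate 1.

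The kinesin-related gene krp13, of the motor proteins that move along microtubules, had 6.87 and 6.51 in the CCR mutant, against 7.21 and 7.53 in WS. The groups did not overlap, and the difference was -0.68 (SE 0.19, adjusted p = 0.765 with limma). The other 4 with an unadjusted p under 0.05 are named after their values were seen: krp6 and krp11, each at -0.41, and the origin recognition genes orc3 (-0.26) and orc4 (-0.22), whose products mark the sites where replication starts. For krp6, at 10.55 and 10.59 in the CCR mutant against 11 and 10.96 in WS, WS replicate 2 did not stand above WS replicate 1. The same held for orc3, at 6.66 and 6.73 in the CCR mutant against 6.95 on both WS arrays. WS replicate 2 was the higher WS array for krp11, at 7.06 and 6.93 in the CCR mutant against 7.32 and 7.49 in WS. It was also the higher for orc4, at 6.49 and 6.48 in the CCR mutant against 6.67 and 6.73 in WS.

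Chromatin proteins of this list went in both directions. The linker histone H1 probe sets of his1 were higher on CCR mutant replicate 1 than on the other arrays, with differences of 0.12 to 0.17, and his1a differed by 0.03. The high mobility group gene hmg2 differed by -0.21 on both of its probe sets. The linker histone gene hon101 had 12.12 and 11.52 in the CCR mutant, against 12.07 and 12.20 in WS, so that CCR mutant replicate 2 was again the lowest array. The kinase gene wee1, which restrains entry into mitosis, had 5.23 and 5.11 in the CCR mutant, against 5.20 and 5.47 in WS.

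Markers of other cells and of growth are given beside these values, and their part in the differences was not tested. The 5 tested meristem and organ primordium probe sets of 9 all had lower means in the CCR mutant (median -0.29), where 62.7% of all tested probe sets did. The groups did not overlap for 1 of the 5 (23.5% of all were lower without overlap). With limma, 0 of the 5 had an unadjusted p under 0.05 (6.43% of all did). The WS arrays of the 5 had no common order: WS replicate 2 was above WS replicate 1 for ZYB15 and ZYB10m and below it for KN-1, lg3 and knox7. The homeobox gene KN-1, which maintains the shoot meristem, had 8.49 and 8.35 in the CCR mutant, against 9.04 and 8.38 in WS, where WS replicate 1 was the higher. The YABBY gene ZYB10m, of young lateral organs, had 5.66 and 5.22 in the CCR mutant, against 5.63 and 6.52 in WS, an order of arrays like that of MCM7.

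The mean level of the 19 tested photosynthetic leaf probe sets of 21 was 11.08 and 11.19 in the CCR mutant, against 11.25 and 10.88 in WS. WS replicate 2, the highest array for most division probe sets, thus had the lowest mean for leaf genes. It was not the lowest for every leaf probe set. Those of Cab-m7, lhcb5 and lhcb6 and 1 of PPDK were lowest on CCR mutant replicate 1, and pepcZm2A on WS replicate 1. The gene me3 had a wide gap in WS, at 8.93 and 7.05. The 16 higher and 3 lower leaf probe sets had a median difference of 0.10, where 62.7% of all tested probe sets were lower. The 5 xylem and secondary wall probe sets, all tested, had mean levels of 10.34 and 10.67 in the CCR mutant, against 10.82 and 10.43 in WS. The 5 tested epidermis probe sets of 10 had 10.60 and 10.89 in the CCR mutant, against 10.50 and 10.66 in WS. The 24 tested ribosomal protein probe sets, with a median difference of -0.04, and the 19 tubulin probe sets, with -0.05, lay close to the median of all tested probe sets.

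**Figure D4:**
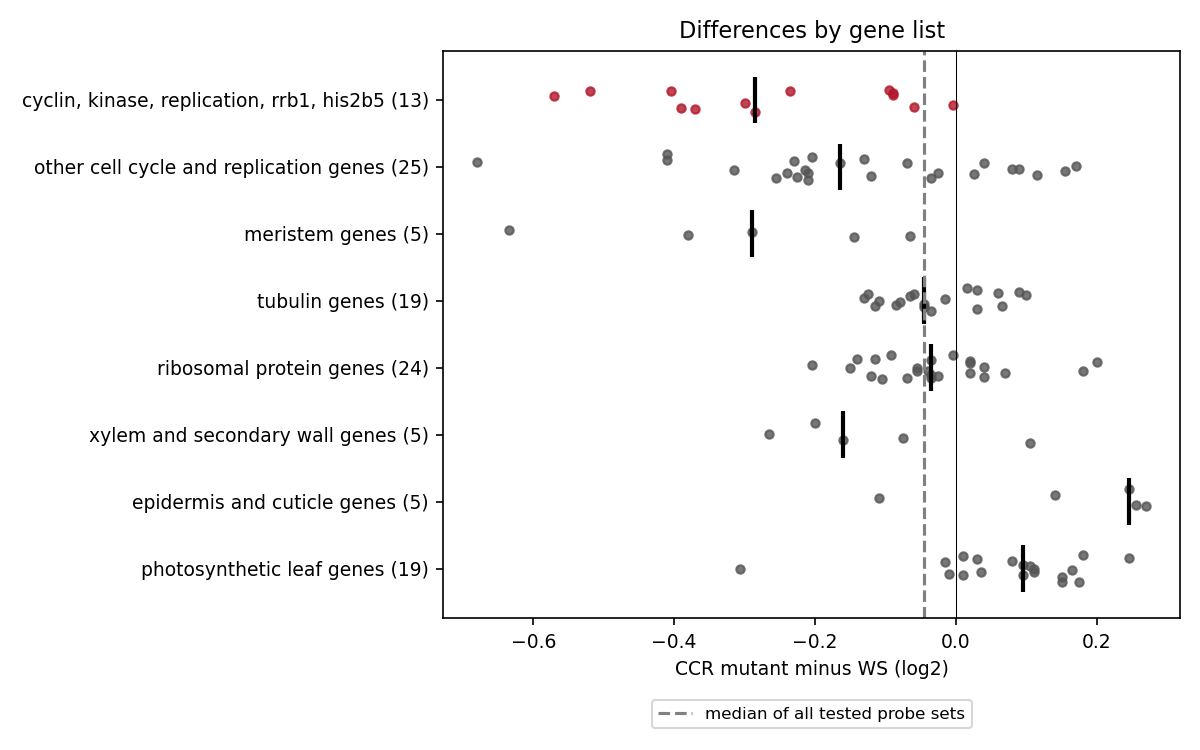
Differences (horizontal axis, CCR mutant minus WS, log2) of the 13 tested cyclin, kinase, replication, rrb1 and his2b5 probe sets (red) and of 7 other gene lists (grey), with the number of tested probe sets in brackets and a bar at each median. The medians are -0.29 for the 13, -0.17 for the other cell cycle and replication genes, -0.04 for ribosomal protein genes and 0.10 for photosynthetic leaf genes. They are -0.29 for meristem genes, -0.16 for xylem and secondary wall genes, -0.05 for tubulin genes and 0.25 for epidermis and cuticle genes.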

How the data were processed

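The authors deposited 1 table of GCRMA values, 1 per probe set and array, per the submitters' processing notes, which name no version. The deposited values are taken as log2, from their range of 1.12 to 14.1, since the table does not state the base. They were not normalized again. Control and reporter probe sets (179) were left out, and a probe set was tested if it reached 4 on at least 2 of the 4 arrays (11085 of 17555). Limma 3.58.1 in R 4.3.3 (lmFit, eBayes, two-sided, Benjamini-Hochberg over all tested probe sets, threshold 0.05) gave the differences, with 2 residual and 1.70 prior degrees of freedom. The code was tested on simulated data.

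Names come from the platform annotation and from RefSeq symbols and synonyms (Zm-B73-REFERENCE-NAM-5.0); no coordinates are printed, as the array names no build. The members and lists were chosen with earlier results of these data known. All 15 member probe sets are named; of other lists, the rule names probe sets without overlap and a difference of at least 0.5 in size, which only krp13 met, while the others in the text were picked with their values known. The list of other cell cycle genes was matched by symbol only, since the gene table holds no descriptions; some of its genes are not reported here, cks1, dnp1 and dnp2 were dropped from it, RNA polymerase and deacetylase genes from the ribosomal list and Bk2L3 and Bk2L6 from the xylem list, as names that matched without the role. The alternatives were other filters (none, or a minimum of 6), other variance models (trend, robust), a second quantile normalization, median centring, the replicate number as a block, the removal of single arrays or of _s_at and _x_at probe sets, a floor at 4, and 1 probe set per gene. Probe sets of 1 gene are numbered in the order of their names, which stand in the plot of values.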

Additional observations from a re-analysis of the deposited data

How the results depend on the processing

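In no setting did any of the cell cycle, replication and histone probe sets pass. Over all tested probe sets 17 passed, against 9 without a filter on low values and 0 with the replicate number as a block (774 at an unadjusted limma p under 0.05). With any 1 array left out 0 passed (473 to 976 at an unadjusted p under 0.05); the lone array of a group is then assumed to vary like the other group. The median difference of the 13 was -0.50 to -0.10 with 1 array left out, and -0.29 to -0.24 in the other settings that kept all 13. Of those other settings, only a second quantile normalization and centred arrays could move the median. The median was -0.24 over all 15 without a filter and -0.34 over 1 probe set per gene. The filters, the variance models, the block and the removal of _s_at and _x_at probe sets cannot change the difference of a single probe set. The floor cannot either, since all 13 lie above it on all arrays. Only the second quantile normalization, the centring of arrays and the removal of single arrays could. Of 167 recomputed differences of single probe sets, which include those that could not change, 159 kept their sign. That count is therefore no measure of robustness. The rest concern rrb1, at 0.039 with a second quantile normalization and 0.035 with centred arrays, and, with 1 array left out, rrb1 (-0.12 to 0.11), cyc2 (-0.26 to 0.07) and MCM6 on probe set 2 (-0.60 to 0.13); the cause was not tested. With 1 array left out, cyc3 ranged from -0.88 to -0.26, cyc1 from -0.83 to -0.21 and MCM7 from -0.63 to -0.18. The block leaves the median of the 13 at -0.29, as it must, since each group holds both replicate numbers. Nothing in the labels pairs arrays of the same number; over all tested probe sets their deviations correlated at 0.35, while for 10 of the 13 WS replicate 2 was the highest array and CCR mutant replicate 2 the lowest. With 2 arrays a group, the unadjusted 95% intervals of the 13 reached a median of 0.57 to either side; the adjusted test asks for more than this. The settings for the 25 further probe sets were added after the data were seen.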
